A study of Homo sapiens with 16 samples.

Results

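The human mitochondrial genome carries 37 genes, and the transcripts of all 37 were followed here across 16 RNA libraries of lung cancer cells. They were taken from a table of 60448 genes by their symbols, which begin with MT-, and comprise 13 protein genes, 2 rRNA genes and 22 tRNA genes. The choice used no measured value. All 37 lie on chromosome M in build GRCh38, and 24 of them, namely the 13 protein genes, both rRNAs and 9 tRNAs, had a mean of at least 0.5 FPKM and entered the tests. FPKM are fragments scaled to the length of the gene and to the mapped fragments of the library. The other 13 tRNAs were listed at 0 in every library.

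The libraries came from A549, an established line of human lung adenocarcinoma cells, and from A549/cDDP, its derivative that resists cisplatin, a platinum drug that crosslinks DNA. There were 8 groups of 2 libraries. Untransfected A549 received drug solvent or cisplatin for 24 h, and so did untransfected A549/cDDP. A549/cDDP was also transfected with 12 pmol of a control gapmer, or of a gapmer against SCAT7, and received solvent or cisplatin for the last 24 h of the 48 h that followed. A gapmer is a short antisense oligonucleotide, here with locked nucleic acids, through which RNase H cuts a matching RNA. SCAT7 is a long noncoding RNA. All wells held 35000 cells of an unsynchronized population. The labels give the dose as 15 mM, and the unit is printed as they have it. A549/cDDP was kept in medium with cisplatin at the same labelled dose, so its solvent groups had met the drug before, and the time between is not given in the sources used here. The design asks how the resistant line and its parent respond to cisplatin and what loss of SCAT7 does in the resistant line. Nothing in the labels says that libraries of a group came from separate cultures, so a p-value here measures only the spread between libraries, which may be technical. Each line is 1 line, so the line and its history of culture cannot be told apart.

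Mitochondrial DNA is a circle whose strands differ in base composition and are called heavy and light. Each strand is transcribed from its own promoter region into a long precursor, and tRNAs that sit between the other genes are cut out of it, which frees the rRNAs and mRNAs. The heavy strand is the template of both rRNAs, 12 protein genes and 14 tRNAs, and the light strand that of MT-ND6 and 8 tRNAs. Genes are named here after their template strand. The proteins are core subunits of respiratory complexes I, III and IV and of ATP synthase, and the remaining subunits are made from nuclear genes and imported. Most of the heavy-strand mRNAs carry short poly(A) tails, the rRNAs carry only a few A residues, and MT-ND6 mRNA is known to have little or no tail. The RNA was enriched with oligo(dT) beads, so a change in the amount of a transcript and a change in its tail cannot be told apart in these values. The same holds for fewer cells of a kind and less RNA per cell.

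The tail matters for the mRNAs themselves, because 6 of the 13 protein genes, as annotated, end before a full stop codon. The first A residues of the tail complete it. MT-ATP6 is not among the 6, but its annotated stop codon is full only with the 1 base that it shares with MT-CO3. The last 24 bases of 3 such genes are shown with MT-CO2, which has a full stop codon. Capitals mark the bases of the stop codon that the DNA supplies. The sequences were read from the annotated transcripts of the reference, release 29 of GENCODE, whose positions are those of GRCh38.
MT-ND1, chrM:4239-4262, plus strand: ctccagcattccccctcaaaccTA
MT-CO3, chrM:9967-9990, plus strand: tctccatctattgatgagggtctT
MT-CYB, chrM:15864-15887, plus strand: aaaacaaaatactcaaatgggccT
MT-CO2, chrM:8246-8269, plus strand: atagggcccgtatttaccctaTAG

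MT-ND6 is read from the other strand and differs from the other 12 protein genes in composition. G made up 35.6% of its bases and C 7.05%, against 6.28% to 16.2% G and 29.5% to 36.0% C in the heavy-strand protein genes. The first 60 bases of MT-ND6 and of its neighbour MT-ND5, which ends at the base next to it, show this difference. Capitals mark G.
MT-ND5, chrM:12337-12396, plus strand: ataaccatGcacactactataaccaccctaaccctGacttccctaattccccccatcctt
MT-ND6, chrM:14614-14673, minus strand: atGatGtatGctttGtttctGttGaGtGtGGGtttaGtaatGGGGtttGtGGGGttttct

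Several mitochondrial genes overlap on the same strand, and reads there can be split or dropped in counting. MT-ATP8 shares its last 46 bases with MT-ATP6, and its value is therefore uncertain. The end of MT-ATP8 is shown with the shared bases in capitals.
MT-ATP8, chrM:8497-8572, plus strand: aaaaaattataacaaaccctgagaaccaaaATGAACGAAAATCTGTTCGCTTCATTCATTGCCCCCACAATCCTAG

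The libraries held between 31350000 and 43140000 fragments, recovered from the steps between low FPKM values. Depth moved with the gapmer: the 4 control gapmer libraries held 42300000 to 43140000 and the 4 SCAT7 gapmer libraries 31350000 to 33400000. It also moved with transfection, since the 4 untransfected A549/cDDP libraries held 33220000 to 39240000, below each control gapmer library. ELF3-AS1, the RNA that RefSeq lists under the name SCAT7, stood at 2.56 and 3.57 FPKM with the control gapmer in solvent and at 0.594 and 0.837 with the SCAT7 gapmer. In cisplatin the values were 3.73 and 3.23 against 1.69 and 2.18, and it lies antisense to ELF3. Of 6 epithelial markers, KRT7, KRT8, KRT18, KRT19, CDH1 and EPCAM, the keratin KRT7 stood at 2735 FPKM or more in all 16 libraries. EPCAM stood between 0.584 and 3.81. Of 5 alveolar and lung adenocarcinoma markers, the surfactant genes did not exceed 0.194. NAPSA stood at 0.792 to 3.19 FPKM, and NKX2-1 at 0 in the A549 libraries and 0.695 to 1.34 in those of A549/cDDP. Of 6 markers of other lineages, COL1A1, a collagen of fibroblasts and other mesenchymal cells, stood at 7.20 to 52.7 FPKM, and those of blood, endothelial, muscle and liver cells did not exceed 0.590. The epithelial and other-lineage lists moved with several comparisons, and their values stand beside those. Of the alveolar list, 2 genes were tested. In solvent both were higher in A549/cDDP than in A549, with a median of 1.26, where 42.7% of all genes were higher. In cisplatin 1 of them was higher, where 37% of all genes were. With cisplatin in A549, 1 was higher, where 33.3% of all genes were. With the control gapmer against no transfection in solvent, 1 was lower, where 19% of all genes were. In the difference of the cisplatin responses between the lines, 1 was called in the negative direction, where 25.6% of all genes were. The part of the alveolar list in the results was not tested. Between the 2 libraries of a group, the median absolute difference over 17198 genes lay between 0.07 and 0.12 on the log2 scale, and the widest was that of the SCAT7 gapmer in cisplatin. Replicate 1 was below replicate 2 in 10 of the 12 heavy-strand protein genes there, by a median of 0.20, and in 11 of the 12 both in untransfected A549/cDDP in cisplatin and with the SCAT7 gapmer in solvent, by medians of 0.14 and 0.13. In the other 5 groups the median of replicate 1 minus replicate 2 lay between 0.00 and 0.02. Differences below are log2 differences of FPKM + 0.5 with their standard error from a limma fit over all 17198 genes that passed the filter, and genes are called higher or lower at a Benjamini-Hochberg adjusted p under 0.05.

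Mitochondrial transcripts were a large part of each library. The 37 genes made up 5.97 and 5.92% of all fragments in A549 in solvent, 7.31 and 7.09% in A549 in cisplatin and 7.97 and 7.98% in A549/cDDP in solvent. MT-CO1, the catalytic subunit of complex IV (ENSG00000198804, chrM:5904-7445), had the highest FPKM of all genes in 16 of 16 libraries, from 10689.9 to 16378. MT-CO2, MT-CO3 and MT-RNR2 followed, with means over the 16 libraries of 7838, 7709 and 7294 FPKM. The 6 heavy-strand genes of complex I were lower per length, from a mean of 1512 FPKM for MT-ND5 to 4274 for MT-ND4. MT-CYB, the complex III subunit, had a mean of 1881 FPKM and MT-ATP6, which forms the proton channel of ATP synthase, one of 3634. MT-ND6, the complex I gene of the light strand (ENSG00000198695, chrM:14149-14673, minus strand), had a mean of 1429 FPKM. MT-ATP8 was listed at only 4.93 to 13.8 FPKM, about 32 to 107 fragments, with the overlap described above. The genes of one precursor therefore differed several-fold in level, and MT-CO2 and MT-CO3 overlapped in range across libraries.

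**Figure D1:**
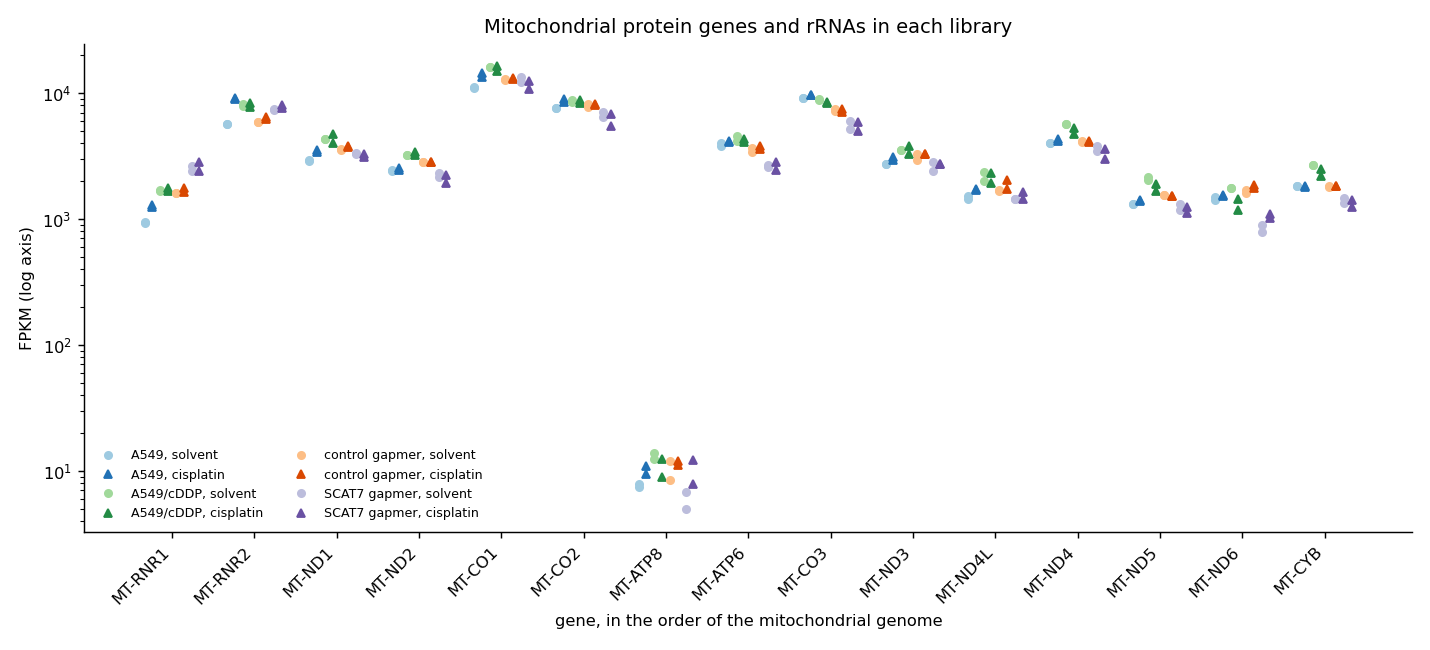
FPKM on a log axis of the 13 mitochondrial protein genes and the 2 rRNAs, in order along the genome, with 1 point for each of the 16 libraries, coloured by line and gapmer, circles for solvent and triangles for cisplatin. MT-CO1 lies highest and MT-ATP8 lowest in each library.

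Of the 22 tRNAs, 9 had a value above 0 in at least 1 library. They were MT-TF, MT-TW and MT-TT of the heavy strand and MT-TQ, MT-TA, MT-TY, MT-TS1, MT-TE and MT-TP of the light strand, that is 3 of 14 and 6 of 8. Position separated them from the rest. Each of the 9 had at least 1 side with no gene of its own strand within 100 bases, and none of the 13 at 0 did. With genes of both strands counted as neighbours, 2 of the 9 had such a side. Mature tRNAs carry no poly(A) tail and are shorter than a usual read, so fragments over a tRNA gene can belong to uncut or antisense RNA of the surroundings, and these values are not levels of mature tRNAs. MT-TE also borders MT-ND6 directly on its own strand, so fragments over it can belong to uncut RNA that holds MT-ND6. MT-TE and MT-TP, which lie on either side of the complex III gene on the strand opposite to it, are shown because their values moved with MT-ND6 in several comparisons below.
MT-TE, chrM:14674-14742, minus strand: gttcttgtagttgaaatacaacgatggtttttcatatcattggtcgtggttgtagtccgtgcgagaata
MT-TP, chrM:15956-16023, minus strand: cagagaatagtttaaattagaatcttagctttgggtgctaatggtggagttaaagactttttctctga

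Whether light-strand values could hold heavy-strand reads bears on all that follows, since the labels' library protocol names no step that marks strand. It was looked at in 66 nuclear genes of a single exon that lie wholly within an exon of a gene on the other strand. Their mean stood at a median of 1.46% of that of the gene across, with quartiles of 0.507% and 3.12%, and 6 of the 66 stood at 10% or more, the highest at 80.8%. The light-strand members lie beside heavy-strand protein genes and not within them, so their percentages and those of the 66 are unlike measures. They cannot decide the question and are given as a description. MT-ND6 stood at 76.0% of MT-CYB, the more abundant of its heavy-strand neighbours. That is above the upper quartile and below only the highest of the 66, with the next at 21.8%. Over MT-ND5, its other neighbour, the FPKM ratio of MT-ND6 ran from 0.675 to 1.21 across libraries. MT-TE, MT-TP and MT-TQ stood at 9.79%, 9.34% and 4.03% of their more abundant heavy-strand protein neighbour, above that upper quartile. MT-TS1 at 2.09%, MT-TY at 0.844% and MT-TA at 0.107% stood below it. MT-TS1 ranged from 37.7 to 529 FPKM, MT-TA from 5.64 to 20.6 and MT-TF from 0 to 2.54, and these 3 passed in none of the 12 comparisons.

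**Figure D2:**
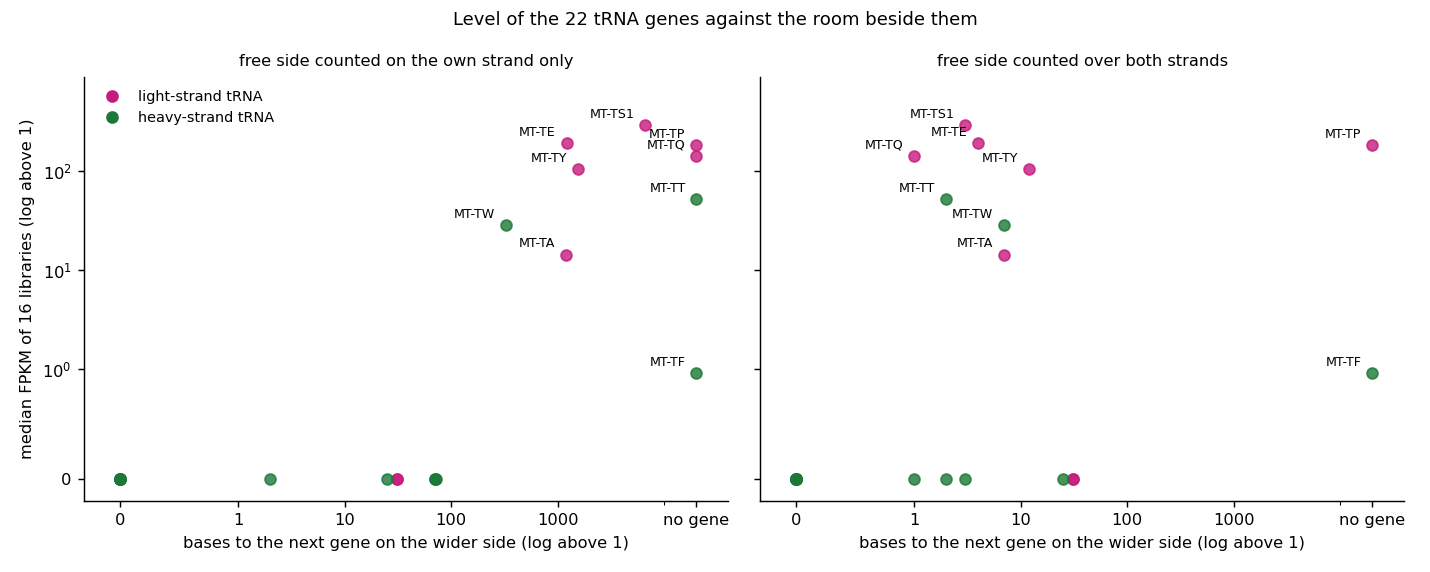
Median FPKM over the 16 libraries of each of the 22 tRNA genes (log above 1) against the bases to the next gene on its wider side (log above 1), with neighbours of its own strand (left) or of both strands (right). On the left the 9 genes above 0 stand apart to the right of the 13 at 0, and on the right they do not.

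Both rRNAs rose with cisplatin in A549, and most of the protein genes did not pass. MT-RNR2, the large rRNA (ENSG00000210082, chrM:1671-3229), stood at 5635 and 5726 FPKM in solvent and at 8985 and 9081 in cisplatin. Both cisplatin libraries lay above both solvent libraries, a difference of 0.67 ± 0.06 (adjusted p = 5.77e-07). MT-RNR1, the small rRNA (ENSG00000211459, chrM:648-1601), stood at 953 and 930.4, against 1243 and 1282, again without overlap, a difference of 0.42 ± 0.07 (adjusted p = 0.000193).

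Among the 12 heavy-strand protein genes, MT-CO1 and MT-ND1 were higher and the other 10 did not pass. MT-CO1 went from 11229.5 and 11060.0 FPKM to 14448 and 13441, a difference of 0.32 ± 0.08 (adjusted p = 0.00555). MT-ND1, the first protein gene after the rRNAs and a membrane subunit of complex I, went from 2965 and 2907 to 3562 and 3437, a difference of 0.25 ± 0.07 (adjusted p = 0.00682). The groups of neither gene overlapped. MT-ND6 did not pass, with 1504 and 1405 FPKM in solvent and 1536 and 1545 in cisplatin, a difference of 0.08 ± 0.09 (adjusted p = 0.426). MT-TT, a heavy-strand tRNA gene after MT-CYB, was lower, from 64.9 and 71.9 to 52.8 and 43.1 FPKM, at -0.51 ± 0.17 (adjusted p = 0.0187).

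In all, 5 of the 24 mitochondrial genes tested passed, 4 higher and 1 lower, against 60.4% of all genes tested in this comparison, 33.3% higher and 27.1% lower. The median difference of the 12 heavy-strand protein genes was 0.12, beside 0.06 for all genes. Without replicate 1 of A549 in cisplatin, 1 of the 12 was higher, and MT-CO1 was at 0.27 (adjusted p = 0.0525). Quantile normalization gives MT-CO1, the top-ranked gene of every library, the same value throughout, so no difference of this gene is left there, in this or any other comparison. MT-TT did not pass without replicate 2 of A549 in solvent, at -0.44 (adjusted p = 0.104), or without replicate 2 of A549 in cisplatin, at -0.37 (adjusted p = 0.149). Among the epithelial markers, 4 were lower and 1 higher in cisplatin, with summed levels of 8414 and 8429 FPKM in solvent and 6750.0 and 6849 in cisplatin, and COL1A1 was lower, at -0.32 ± 0.09 (adjusted p = 0.009). The part of these markers in the result was not tested.

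In untransfected A549/cDDP, 3 mitochondrial genes changed with cisplatin, all of the light strand and all lower. MT-ND6, a membrane subunit of complex I, stood at 1763 and 1776 FPKM in solvent and at 1180.2 and 1436 in cisplatin. The groups did not overlap, and the difference was -0.44 ± 0.09 (adjusted p = 0.00827). MT-TP went from 228 and 237 to 124 and 169.5, at -0.68 ± 0.15 (adjusted p = 0.0149), and MT-TQ from 234 and 226 to 149 and 163, at -0.56 ± 0.15 (adjusted p = 0.0396). None of these groups overlapped.

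None of the 12 heavy-strand protein genes passed in limma, and 3 were lower at an unadjusted p under 0.05. Their median difference was -0.05, beside 0.00 for all genes, of which 8.1% passed, 3.55% higher and 4.55% lower. Neither rRNA passed, with MT-RNR2 at 7876 and 8196 FPKM in solvent and 7705 and 8422 in cisplatin, a difference of 0.00 ± 0.06 (adjusted p = 0.982). The 3 calls rest on few libraries. MT-ND6 did not pass without replicate 1 of A549/cDDP in solvent, at -0.45 (adjusted p = 0.0543), or without replicate 2, at -0.44 (adjusted p = 0.0631). MT-TQ did not pass when any of the 4 libraries was left out and MT-TP when any but replicate 2 in cisplatin was, with adjusted p up to 0.173 and 0.101. Without replicate 2 of A549/cDDP in cisplatin, 1 of the 12 heavy-strand protein genes was lower. Among the epithelial markers, 3 were lower and the other 3 did not pass, with summed levels of 5555 and 5707 FPKM in solvent and 5276 and 5350.0 in cisplatin. Their part in the result was not tested.

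In the transfected cells no mitochondrial gene passed in response to cisplatin. With the control gapmer, 0 of 24 passed in limma and 0 had an unadjusted p under 0.05, where 2.53% of all genes passed, 1.67% higher and 0.855% lower. MT-RNR2 stood at 5872 and 5919 FPKM in solvent and 6241 and 6444 in cisplatin. With the SCAT7 gapmer, 0 of 24 passed in limma, 4 were higher and 0 lower at an unadjusted p under 0.05, and 4.18% of all genes passed, 2.92% higher and 1.26% lower. MT-ND6 stood there at 791 and 899.8 FPKM in solvent and 1011 and 1091 in cisplatin, without overlap, a difference of 0.32 ± 0.09 (adjusted p = 0.0598). Without replicate 2 of the SCAT7 gapmer in cisplatin, 1 of the 12 heavy-strand protein genes was higher and 3 were lower. With another scaling, by the median ratio to a common reference, the higher share of all calls moved from 66.2% to 52.6% with the control gapmer and from 69.8% to 57.6% with the SCAT7 gapmer.

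**Figure D3:**
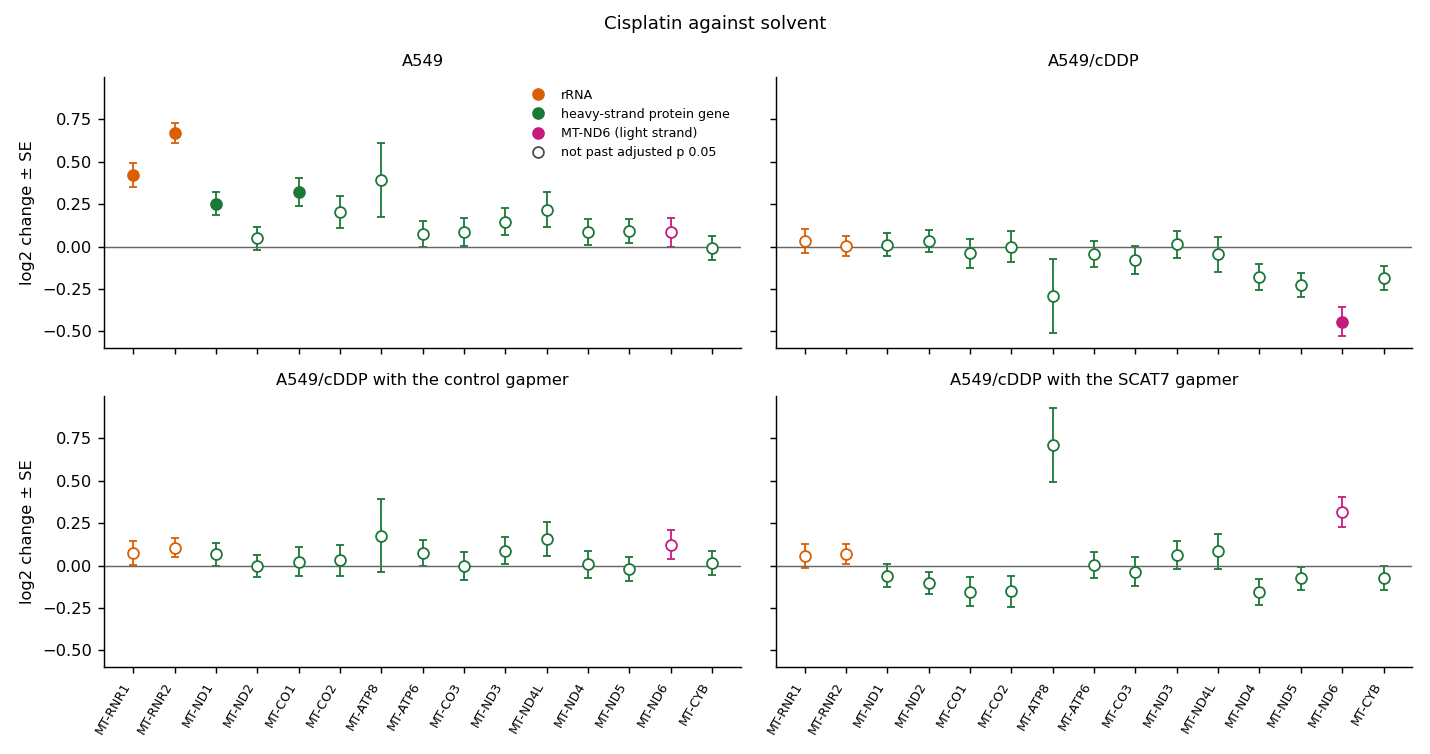
Log2 difference between cisplatin and solvent for the 2 rRNAs and the 13 protein genes in A549, in A549/cDDP and in A549/cDDP with either gapmer, with bars of 1 standard error and filled points for an adjusted p under 0.05. MT-RNR2 lies highest in A549, at 0.67, and MT-ND6 lies lowest in A549/cDDP, at -0.44.

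The responses of A549 and A549/cDDP differed for 8 of the 24 genes, by the test of the difference itself. As the response in A549/cDDP minus that in A549, the difference was -0.67 ± 0.08 (adjusted p = 2.74e-05) for MT-RNR2, -0.39 ± 0.10 (adjusted p = 0.00609) for MT-RNR1 and -0.53 ± 0.12 (adjusted p = 0.00334) for MT-ND6. MT-TQ, MT-TP and MT-TE differed by -0.77, -0.64 and -0.42, and MT-CO1 and MT-ND5 by -0.36 and -0.32. All 8 differences were negative. Of all genes, 47% differed in this way, 21.5% in the positive and 25.6% in the negative direction. The count of 8 of 24 lay below the share of 47%, and as a negative count it is not far from its share. The calls of both rRNAs, MT-ND6 and MT-TQ held under each of the 18 alternatives run, and those of MT-CO1, MT-ND5, MT-TE and MT-TP did not. Of the 12 heavy-strand protein genes, 2 differed, and this count was 7 without replicate 2 of A549/cDDP in cisplatin. It was 0 without replicate 1 of A549 in solvent, replicate 2 of A549/cDDP in solvent or replicate 1 of A549/cDDP in cisplatin, and 1 without any of the other 4 libraries. Of the 6 epithelial markers, 2 differed in the positive and 1 in the negative direction, and COL1A1 differed in the positive, at 0.62. The part of these markers in the result was not tested. Between the gapmers the responses differed for 0 of 24 genes in limma and for 0 at an unadjusted p under 0.05, where 0.93% of all genes differed, 0.488% in the positive and 0.442% in the negative direction.

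Of the 24 mitochondrial genes tested, 13 were higher in A549/cDDP than in A549 in solvent and 8 in cisplatin. Of all genes, 42.7% and 37% were higher, and the count of 8 in cisplatin did not exceed that share. In solvent, 9 of the 12 heavy-strand protein genes were higher and none lower, with both rRNAs and MT-ND6 higher as well. All 6 heavy-strand genes of complex I were higher. MT-ND5, an antiporter-like subunit of that complex, stood at 1311 and 1321 FPKM in A549 and at 2044 and 2144 in A549/cDDP, a difference of 0.67 ± 0.07 (adjusted p = 3.02e-06). MT-CYB, the cytochrome b of complex III (ENSG00000198727, chrM:14747-15887), stood at 1823 and 1821, against 2675 and 2677, a difference of 0.55 ± 0.07 (adjusted p = 1.61e-05). The A549/cDDP libraries lay above the A549 libraries in each case.

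MT-RNR1 had the widest difference of the rRNAs and protein genes, from 953 and 930.4 FPKM in A549 to 1669.7 and 1696 in A549/cDDP, at 0.84 ± 0.07 (adjusted p = 3.44e-07). MT-RNR2 went from 5635 and 5726 to 7876 and 8196, at 0.50 ± 0.06 (adjusted p = 6.52e-06). MT-ND6 was higher by less, from 1504 and 1405 to 1763 and 1776, at 0.28 ± 0.09 (adjusted p = 0.0104). Complex IV did not move together. MT-CO1 was higher, at 0.53 ± 0.08 (adjusted p = 0.000129), while MT-CO2, which takes electrons from cytochrome c, stood at 7609 and 7572, against 8815 and 8475 and MT-CO3 at 9066 and 9118, against 8928 and 8814. Neither of the last pair passed, with differences of 0.19 ± 0.09 (adjusted p = 0.0866) and -0.04 ± 0.08 (adjusted p = 0.722). MT-ATP6 did not pass either, at 0.15 ± 0.08 (adjusted p = 0.0906). MT-ATP8 was higher, at 0.74 ± 0.22 (adjusted p = 0.00852), but not without replicate 2 of A549/cDDP in solvent, at 0.67 (adjusted p = 0.0529).

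Besides the 13 higher genes 1, MT-TT, was lower, where 70.2% of all genes passed, 42.7% higher and 27.5% lower. The median of the 12 heavy-strand protein genes was 0.52, beside 0.15 for all genes. With median ratio scaling these medians were 0.36 and 0.02, the higher share of all calls moved from 60.8% to 49.7%, and 8 of the 12 genes were higher. MT-ND6 was not called under that scaling, at 0.13 (adjusted p = 0.228), nor without replicate 2 of A549 in solvent, at 0.23 (adjusted p = 0.0777). MT-TT was not called without either A549 library or without replicate 1 of A549/cDDP, with adjusted p up to 0.245. Of the 6 epithelial markers, 5 were lower and 1, KRT19, was higher, with a median of -0.77 and summed levels of 8414 and 8429 FPKM in A549 and 5555 and 5707 in A549/cDDP. COL1A1 was higher, at 1.94 ± 0.09 (adjusted p = 1.92e-09). The part of these markers in the result was not tested.

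In cisplatin, 7 of the 12 heavy-strand protein genes were higher in A549/cDDP and 1 was lower. The 6 heavy-strand genes of complex I and MT-CYB were the higher ones, and MT-CO3, a core subunit of complex IV, was lower. MT-ND2, a membrane subunit of complex I, stood at 2549.8 and 2455 FPKM in A549 and 3202 and 3390.3 in A549/cDDP, a difference of 0.40 ± 0.07 (adjusted p = 0.000156). MT-CYB stood at 1828 and 1797, against 2206 and 2507, a difference of 0.38 ± 0.07 (adjusted p = 0.000453). The rRNAs parted: MT-RNR1 was higher, at 0.45 ± 0.07 (adjusted p = 0.000106) and MT-RNR2 lower, at -0.17 ± 0.06 (adjusted p = 0.0231). MT-RNR2 stood at 8985 and 9081 FPKM in A549 and 7705 and 8422 in A549/cDDP, and the groups did not overlap.

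MT-ND6 was also lower in A549/cDDP in cisplatin, with 1536 and 1545 FPKM in A549 and 1180.2 and 1436 in A549/cDDP, a difference of -0.24 ± 0.09 (adjusted p = 0.0246). MT-TW and MT-TP were lower as well, at -0.62 ± 0.21 (adjusted p = 0.0216) and -0.36 ± 0.15 (adjusted p = 0.0448), and neither passed without replicate 1 of A549/cDDP, at -0.48 (adjusted p = 0.138) and -0.14 (adjusted p = 0.435). MT-TW did not pass without replicate 2 of A549 in cisplatin, nor MT-TP without its replicate 1. Of the 24 genes, 8 were higher and 5 lower, where 66.5% of all genes passed, 37% higher and 29.5% lower. Neither count exceeded its share over all genes. The median of the heavy-strand protein genes was 0.23, beside 0.08 for all genes. With any 1 of the 4 libraries left out, 5 or 6 of the 12 were higher and none lower. MT-RNR2 did not pass without either A549 library or without replicate 1 of A549/cDDP, nor did MT-ND6, with adjusted p up to 0.304 and 0.941 over all alternatives run for them. With median ratio scaling 4 of the 12 were higher. All 6 epithelial markers were lower, with a median of -0.65 and summed levels of 6750.0 and 6849 FPKM in A549 and 5276 and 5350.0 in A549/cDDP, and COL1A1 was higher, at 2.56 ± 0.09 (adjusted p = 2.06e-10). The part of these markers in the result was not tested.

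With the SCAT7 gapmer, rRNAs and mRNAs went in opposite directions. Against the control gapmer in solvent, both rRNAs were higher, 8 of the 12 heavy-strand protein genes were lower and none higher, and MT-ND6 fell further than any of the 12. MT-ND6 stood at 1711 and 1605 FPKM with the control gapmer, against 791 and 899.8 with the SCAT7 gapmer. The libraries did not overlap, and the difference was -0.97 ± 0.09 (adjusted p = 1.38e-06). MT-RNR1 stood at 1610.1 and 1615, against 2637 and 2415, a difference of 0.65 ± 0.07 (adjusted p = 7.93e-06), and MT-RNR2 at 5872 and 5919, against 7409 and 7528, a difference of 0.34 ± 0.06 (adjusted p = 0.00029).

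Of the heavy-strand mRNAs, MT-ATP6 went from 3638 and 3412 FPKM to 2567 and 2708, at -0.42 ± 0.08 (adjusted p = 0.0005). MT-CO3 went from 7536 and 7146 to 5155 and 5962, at -0.40 ± 0.08 (adjusted p = 0.00135), and MT-CYB from 1833 and 1793 to 1335 and 1466, at -0.37 ± 0.07 (adjusted p = 0.00067). All SCAT7 gapmer libraries lay below all control gapmer libraries for these 3 genes. With quantile normalization MT-CYB was at -0.16 (adjusted p = 0.0596) and MT-ND5 at -0.16 (adjusted p = 0.057), neither called, and the median of the 12 was -0.16. MT-ND2, MT-ND3 and MT-ND5 of complex I were lower too, at -0.34, -0.25 and -0.32, and so were MT-CO2 at -0.23 and MT-ATP8 at -0.75. MT-CO1 did not pass, with 12777 and 12856 FPKM, against 12347 and 13440.0, nor did MT-ND1, MT-ND4L and MT-ND4, at 0.01, -0.11, -0.21 and -0.18.

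The light-strand tRNA genes next to MT-CYB fell with MT-ND6, which MT-TE borders directly on the same strand. MT-TE stood at 224 and 204 FPKM with the control gapmer, against 111 and 128 with the SCAT7 gapmer, a difference of -0.84 ± 0.11 (adjusted p = 3.36e-05). MT-TP stood at 234 and 178, against 103 and 100.4, without overlap (adjusted p = 9.89e-05). MT-TQ was lower, at -0.61, and so were MT-TT and MT-TW of the heavy strand, at -0.62 and -0.58.

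In all, 2 of the 24 genes were higher and 14 lower, where 55.8% of all genes passed, 33.2% higher and 22.7% lower. The median of the 12 heavy-strand protein genes was -0.28, beside 0.06 for all genes. Depth differed between these groups, as given above. Of the 6 epithelial markers, 5 were lower and 1, KRT19, was higher, with a median of -0.43 and summed levels of 6664 and 6964 FPKM with the control gapmer and 5238 and 5325 with the SCAT7 gapmer, and COL1A1 was lower, at -0.49 ± 0.09 (adjusted p = 0.000622). The part of depth and of these markers in the result was not tested. Without replicate 1 of the SCAT7 gapmer in solvent, 5 of the 12 were lower. MT-CO2 did not pass under 9 of 14 alternatives. MT-ATP8 did not pass without replicate 2 of the control gapmer, at -0.52 (adjusted p = 0.11), or without replicate 1 of the SCAT7 gapmer, at -0.54 (adjusted p = 0.106). MT-TW did not pass when any of the 4 libraries was left out, with adjusted p up to 0.163, nor did MT-ND3 without replicate 1 of either gapmer, with adjusted p up to 0.219 over all alternatives.

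**Figure D4:**
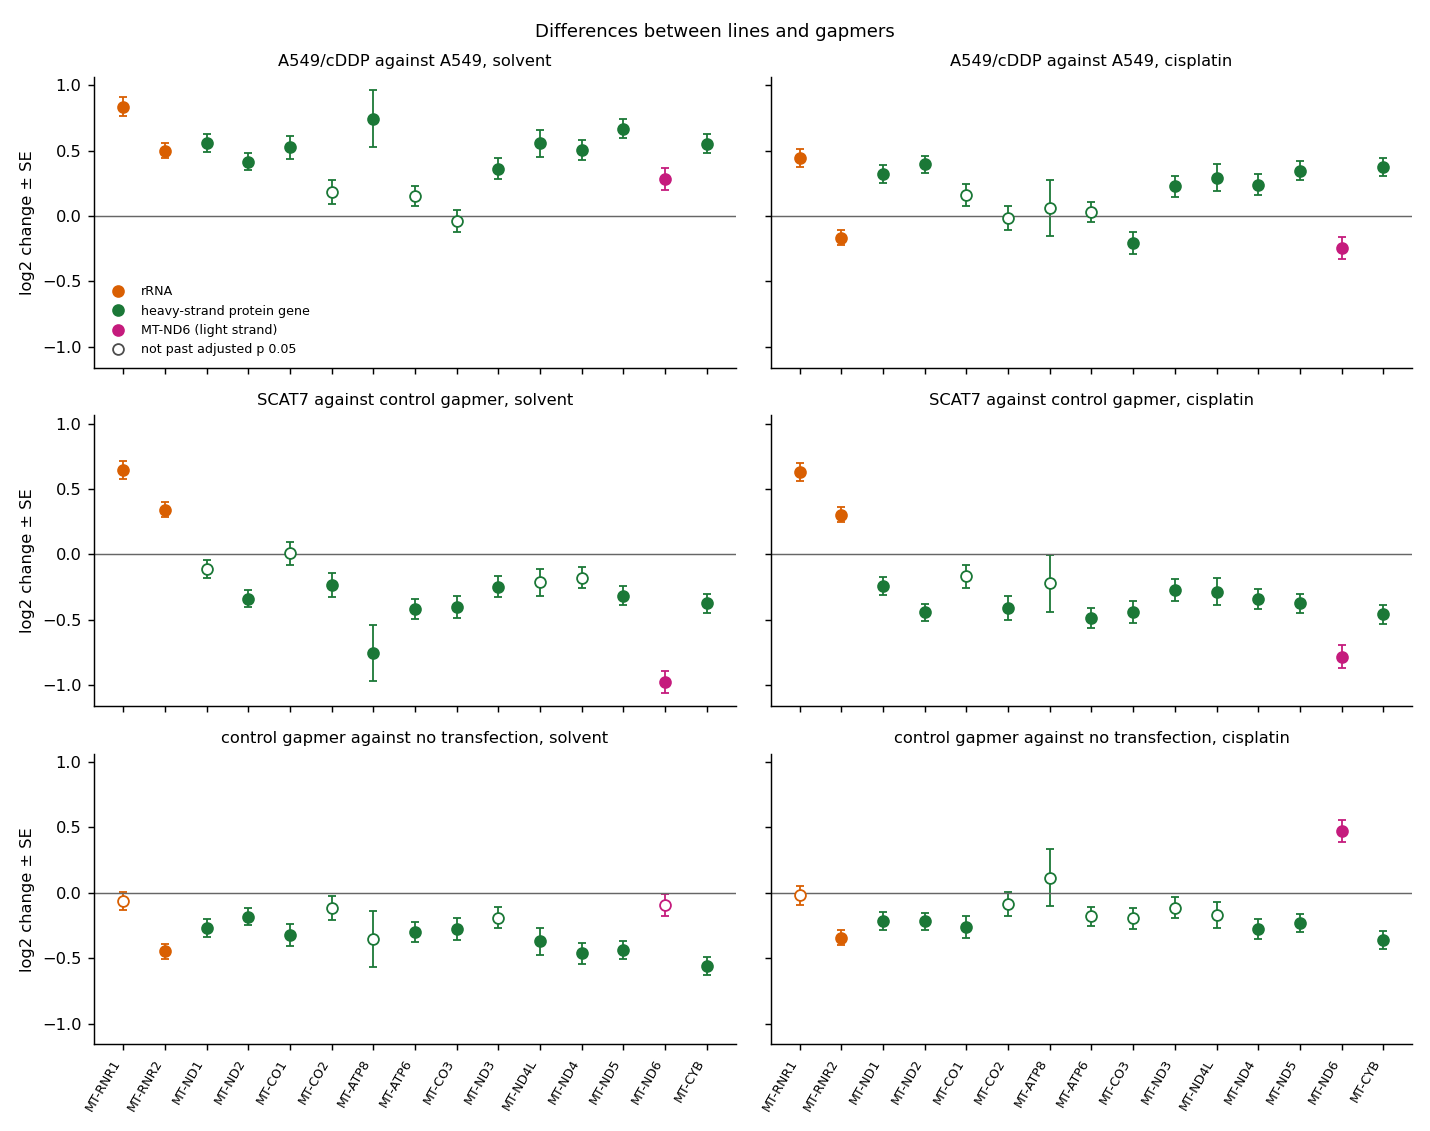
Log2 differences of the 2 rRNAs and the 13 protein genes between A549/cDDP and A549, between the SCAT7 and the control gapmer and between the control gapmer and no transfection, each in solvent and in cisplatin, with bars of 1 standard error and filled points for an adjusted p under 0.05. With the SCAT7 gapmer both rRNAs lie above 0 and the called protein genes below it, with MT-ND6 at -0.97 in solvent and -0.78 in cisplatin.

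In cisplatin, a comparison that shares no library with the one in solvent, the same split appeared between the gapmers. Both rRNAs were higher, 10 of the 12 heavy-strand protein genes were lower and none higher, and MT-ND6 was lower. MT-ND6 stood at 1856 and 1756 FPKM with the control gapmer, against 1011 and 1091 with the SCAT7 gapmer, a difference of -0.78 ± 0.09 (adjusted p = 1.36e-05). MT-RNR1 stood at 1647 and 1749, against 2853 and 2418, a difference of 0.63 ± 0.07 (adjusted p = 1.51e-05), and MT-RNR2 at 6241 and 6444, against 8034 and 7636, a difference of 0.30 ± 0.06 (adjusted p = 0.000867). All 6 heavy-strand complex I genes were lower, from -0.24 for MT-ND1 to -0.44 for MT-ND2. MT-ATP6 had the widest difference of the heavy-strand protein genes that were called, from 3812 and 3603 to 2457 and 2846 FPKM, at -0.49 ± 0.08 (adjusted p = 0.000207).

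MT-CO1 again did not pass, with 12869.5 and 13161 FPKM with the control gapmer, against 10689.9 and 12555 with the SCAT7 gapmer, and MT-ATP8 did not either. MT-TE and MT-TP were lower, at -0.58 and -0.61, and MT-TQ and MT-TT at -0.91 and -0.91. MT-TY was lower, at -1.71, but its replicates with the SCAT7 gapmer were far apart, at 26.1 and 107 FPKM, and without the first of them it was at -0.70 (adjusted p = 0.141). It did not pass without either control gapmer library, with adjusted p up to 0.141 over all alternatives. MT-TS1 showed the same gap, at 37.7 and 254 FPKM, and did not pass.

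Of the 24 genes, 2 were higher and 16 lower in cisplatin, where 49.7% of all genes passed, 28.6% higher and 21.1% lower. The median of the 12 was -0.36, beside 0.04 for all genes. Of the 6 epithelial markers, 5 were lower and 1, KRT19, was higher, with a median of -0.42 and summed levels of 6462 and 6485 and then 5199.9 and 5441 FPKM. COL1A1 was lower, at -0.44 ± 0.09 (adjusted p = 0.00172). The part of these markers and of depth was not tested here either. With any 1 of the 4 libraries left out, 7 to 11 of the 12 were lower. MT-ND1 and MT-ND4L did not pass without replicate 1 of either gapmer, with adjusted p up to 0.113 and 0.646 over all alternatives, nor did MT-ND3 without either control gapmer library, with adjusted p up to 0.0659. The calls of MT-ND6, MT-RNR1, MT-RNR2, MT-ND2, MT-ATP6, MT-CO3, MT-TE, MT-TP, MT-TQ and MT-TT held under each of the 14 alternatives run, in solvent and in cisplatin.

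Transfection with the control gapmer was itself accompanied by lower mitochondrial transcripts. These comparisons share their control gapmer libraries with the SCAT7 comparisons and their untransfected libraries with the comparisons of the lines, and the control oligonucleotide and the transfection itself cannot be told apart. Depth differed between these groups as well, as given above, in solvent and in cisplatin, and its part in the results was not tested. In solvent, 9 of the 12 heavy-strand protein genes were lower than in untransfected A549/cDDP and none higher. MT-CYB stood at 2675 and 2677 FPKM without transfection and at 1833 and 1793 with the control gapmer, without overlap, a difference of -0.56 ± 0.07 (adjusted p = 5.56e-05). MT-ND4 and MT-ND5 were lower, at -0.46 ± 0.08 (adjusted p = 0.000582) and -0.44 ± 0.07 (adjusted p = 0.000382). MT-RNR2 went from 7876 and 8196 to 5872 and 5919, at -0.45 ± 0.06 (adjusted p = 6.8e-05), while MT-RNR1, with 1669.7 and 1696, against 1610.1 and 1615, did not pass, at -0.06 ± 0.07 (adjusted p = 0.525).

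MT-ND6 did not pass in solvent either, with 1763 and 1776 FPKM without transfection and 1711 and 1605 with the control gapmer, at -0.10 ± 0.09 (adjusted p = 0.414). None of the 24 genes was higher and 11 were lower, where 39.7% of all genes passed, 20.7% higher and 19% lower. At an unadjusted p under 0.05, 1 of the 24 was higher. The median of the 12 was -0.31, beside -0.01 for all genes. Without replicate 1 of A549/cDDP in solvent, 5 of the 12 were lower, and MT-ND2 turned to 0.051 with quantile normalization. Under that scaling the median of the 12 was -0.16, 6 were lower, MT-RNR2 was at 0 (adjusted p = 1) and MT-ND1 at -0.12 (adjusted p = 0.156), and MT-CO2 was called higher, at 0.13 (adjusted p = 0.012). Calls of MT-ATP6, MT-CO1, MT-CO3, MT-ND2, MT-ND4L and MT-TQ each ended when at least 1 of the libraries was left out, with adjusted p up to 0.0821 for MT-ATP6 and 0.0746 for MT-TQ. Of the 6 epithelial markers, 4 were higher and 1 lower, with summed levels of 5555 and 5707 FPKM without transfection and 6664 and 6964 with the control gapmer. The part of these markers in the result was not tested.

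In cisplatin, 6 of the 12 heavy-strand protein genes and MT-RNR2 were lower with the control gapmer. MT-ND6, MT-TE and MT-TP of the light strand and MT-TT and MT-TW of the heavy strand were higher, and MT-TQ, MT-TA, MT-TY and MT-TS1 of the light strand did not pass. MT-ND6 stood at 1180.2 and 1436 FPKM without transfection and 1856 and 1756 with the control gapmer, a difference of 0.47 ± 0.09 (adjusted p = 0.000801). MT-TE stood at 145 and 192, against 235 and 219, at 0.44 ± 0.11 (adjusted p = 0.00566), and MT-CYB at 2206 and 2507, against 1837 and 1822, at -0.36 ± 0.07 (adjusted p = 0.00132). No library of these groups overlapped with the other group for any of the 3 genes. Of the 24 genes, 5 were higher and 7 lower, where 42.4% of all genes passed, 23% higher and 19.4% lower.

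The median of the 12 in that comparison was -0.21, beside 0.02 for all genes. With quantile normalization that median was 0, 2 of the 12 were lower, and MT-RNR2, MT-ND1 and MT-ND2 turned to 0.20, 0.088 and 0.046. The count of 6 was 1 without replicate 2 of A549/cDDP in cisplatin, 1 without replicate 1 of the control gapmer in cisplatin and 2 without its replicate 2. MT-CYB and MT-ND6 kept their calls under each of the 14 alternatives run, and so did MT-TT. MT-TE did not pass without replicate 1 of A549/cDDP in cisplatin, at 0.24 (adjusted p = 0.0519), nor did MT-TW, at 0.66 (adjusted p = 0.0727), or MT-TP, at 0.28 (adjusted p = 0.173). MT-TW did not pass without replicate 2 of the control gapmer, at 0.50 (adjusted p = 0.108), or MT-TP without its replicate 1, at 0.45 (adjusted p = 0.0892). Among the epithelial markers, 5 were higher and KRT19 did not pass, with summed levels of 5276 and 5350.0 FPKM without transfection and 6462 and 6485 with the control gapmer, and COL1A1 was lower, at -0.33 ± 0.09 (adjusted p = 0.0131). The part of these markers in the result was not tested.

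Ratios within a library do not depend on its scaling and show how mitochondrial transcripts parted. Those of the rRNAs and of complex IV are within the heavy-strand precursor, and that of MT-ND6 sets the light strand against the heavy strand. They are given as descriptions, with no test. The large to small rRNA ratio, MT-RNR2 over MT-RNR1 in FPKM, was 5.92 and 6.15 in A549 in solvent and 7.23 and 7.08 in cisplatin. It was 4.72 and 4.83 in A549/cDDP in solvent and 4.61 and 4.75 in cisplatin. With the control gapmer it was 3.65 and 3.66 in solvent and 3.79 and 3.68 in cisplatin, and with the SCAT7 gapmer 2.81 and 3.12 in solvent and 2.82 and 3.16 in cisplatin. The 4 settings of line and transfection thus lay in an order without overlap, A549 highest and the SCAT7 gapmer lowest, and in A549 the cisplatin libraries lay above the solvent libraries.

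MT-ND6 was set against the mean log2 value of the 11 heavy-strand protein genes other than MT-ATP8. It lay -1.21 and -1.28 from that mean in A549 in solvent and -1.32 and -1.29 in cisplatin. In A549/cDDP it lay -1.39 and -1.35 in solvent and -1.83 and -1.66 in cisplatin. With the control gapmer it lay -1.12 and -1.18 in solvent and -1.03 and -1.09 in cisplatin, the latter the highest group mean. With the SCAT7 gapmer it lay -1.90 and -1.83 in solvent, the lowest group mean, and -1.45 and -1.53 in cisplatin. MT-ND6 therefore did not keep a fixed proportion to the heavy-strand mRNAs: cisplatin libraries of A549/cDDP lay below its solvent libraries, and those of the SCAT7 gapmer lay above.

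Within complex IV, MT-CO3 over MT-CO1 was 0.807 and 0.824 in A549 in solvent and 0.558 and 0.548 in A549/cDDP in solvent. It was 0.590 and 0.556 with the control gapmer, against 0.418 and 0.444 with the SCAT7 gapmer in solvent. MT-CO1 and MT-CO3 come from the same precursor, MT-CO1 nearer its start, and A549 libraries held the most MT-CO3 for their MT-CO1.

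**Figure D5:**
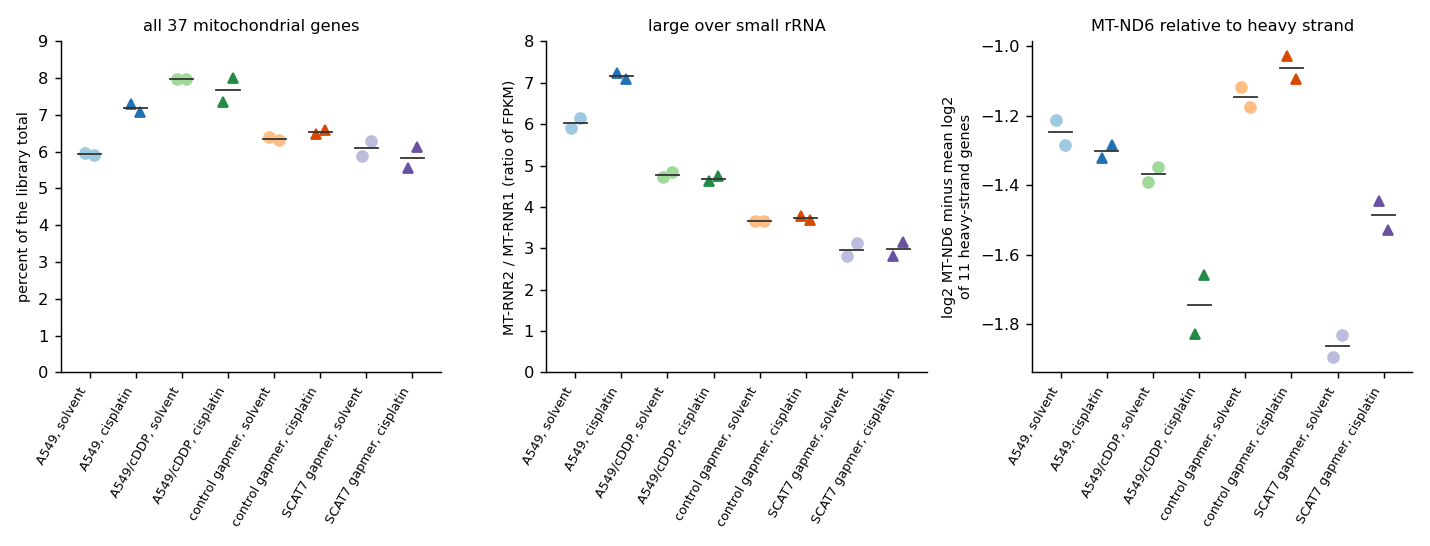
Share of the 37 mitochondrial genes in each library in percent (left), the ratio of MT-RNR2 to MT-RNR1 in FPKM (middle) and MT-ND6 minus the mean of 11 heavy-strand protein genes on the log2 scale (right), with 1 point per library and a line at each group mean. The rRNA ratio falls in steps from A549 to the SCAT7 gapmer, and MT-ND6 lies lowest with the SCAT7 gapmer in solvent.

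Of the nuclear-encoded subunits of the same complexes, more were lower than higher in A549/cDDP. In solvent, 5 of 37 complex I subunits were higher and 19 lower than in A549, with a median of -0.22, where 42.7% of all genes were higher and 27.5% lower. Of 9 in complex III, 8 were lower and 0 higher, of 11 in complex IV 7 were lower and 0 higher, and 0 of either were higher at an unadjusted p under 0.05. Of 16 in ATP synthase, 3 were higher and 12 lower. All 4 subunits of complex II, which is made from nuclear genes alone, were lower, with a median of -0.42. NDUFA1, an accessory subunit of complex I, stood at 151 and 140.3 FPKM in A549 and 48.3 and 52.1 in A549/cDDP, a difference of -1.53 ± 0.13 (adjusted p = 3.61e-07). COX7B of complex IV stood at 95.6 and 92.4, against 31.2 and 29.9, a difference of -1.61 ± 0.07 (adjusted p = 1.06e-09). Of 81 mitochondrial ribosomal proteins tested, 8 were higher and 58 lower, with a median of -0.36. The median over all genes was 0.15, and the medians of these lists stayed negative under the 3 other scalings run. In cisplatin the counts were 3 higher and 26 lower in complex I, 0 and 9 in both complex III and complex IV, and 3 and 63 among ribosomal proteins, where 37% of all genes were higher and 29.5% lower.

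With cisplatin in A549, 33.3% of all genes were higher and 27.1% lower. In complex I, 17 of 37 nuclear subunits were higher and 1 lower, and in complex IV 4 of 11 were higher and 0 lower, with 0 lower also at an unadjusted p under 0.05. SDHA, the flavoprotein of complex II, went from 109.9 and 112 FPKM to 188 and 192, a difference of 0.77 ± 0.03 (adjusted p = 3.29e-10). Of 81 ribosomal proteins, 28 were higher and 24 lower, and 18 higher and 30 lower with median ratio scaling. The higher count in complex IV and both counts of ribosomal proteins lie near the shares over all genes. Of 9 nuclear regulators of mitochondrial biogenesis, 8 were lower and 1 higher. MYC, a transcription factor that drives growth and mitochondrial biogenesis, stood at 81.2 and 81.0, against 47.9 and 47.5, a difference of -0.76 ± 0.03 (adjusted p = 2.75e-10). In A549/cDDP none of the subunits of complexes I to IV and ATP synthase in these lists passed in limma, and at an unadjusted p under 0.05 1 subunit of complex IV was higher and 1 of complex III lower.

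Genes that act on the mitochondrial genome and its RNA changed in several comparisons, and their part in the mitochondrial values was not tested. RRM2B, a subunit of ribonucleotide reductase that supplies nucleotides for mitochondrial DNA and a known p53 target, stood at 52.8 and 52.7 FPKM in A549 in solvent and 321 and 325 in cisplatin, a difference of 2.60 ± 0.03 (adjusted p = 4.92e-14). In A549/cDDP in solvent it stood at 204 and 204. DNA2, a nuclease and helicase of DNA replication, was lower in A549 in cisplatin, from 20.9 and 21.8 to 8.93 and 8.20, at -1.27 ± 0.06 (adjusted p = 2.04e-09). Of 17 genes of mitochondrial DNA replication and nucleotide supply, 4 were higher and 7 lower with cisplatin in A549. Of all genes, 33.3% were higher and 27.1% lower there. TFB2M, which with the mitochondrial RNA polymerase opens the promoters, was lower in A549/cDDP than in A549 in solvent, from 24.1 and 23.9 to 12.1 and 11.1, at -1.02 ± 0.08 (adjusted p = 1.87e-07). KIAA0391 was higher there, from 5.31 and 5.16 to 13.2 and 13.3, at 1.26 ± 0.06 (adjusted p = 1.1e-09). It is a protein subunit of mitochondrial RNase P, which cuts the 5′ ends of tRNAs. ELAC2, which cuts their 3′ ends, was lower, from 117 and 116 to 72.0 and 72.7, at -0.69 ± 0.04 (adjusted p = 3.95e-09). Between the lines in solvent, 3 of 11 genes of mitochondrial transcription were higher and 5 lower. Of 27 genes of mitochondrial RNA cleavage, tailing, stability and decay, 7 were higher and 16 lower there. Of all genes, 42.7% were higher and 27.5% lower.

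With the SCAT7 gapmer in solvent, 6 of 11 genes of mitochondrial transcription were lower and 0 higher, and 2 were higher at an unadjusted p under 0.05, where 33.2% of all genes were higher and 22.7% lower. POLRMT, the mitochondrial RNA polymerase, stood at 69.8 and 72.9 FPKM with the control gapmer, against 47.4 and 48.9 with the SCAT7 gapmer, a difference of -0.56 ± 0.04 (adjusted p = 3.15e-07). Under cisplatin its values were 70.9 and 71.0, against 55.5 and 50.6, at -0.42 ± 0.04 (adjusted p = 6.3e-06). FASTK, whose mitochondrial form is needed for MT-ND6 mRNA, stood at 45.5 and 43.6 in solvent with the control gapmer, against 26.9 and 28.8 with the SCAT7 gapmer, at -0.67 ± 0.04 (adjusted p = 9.4e-08). Of 27 genes of mitochondrial RNA cleavage, tailing, stability and decay, 6 were higher and 13 lower in solvent and 5 and 10 in cisplatin. Of the 81 ribosomal proteins, 1 was higher and 49 lower in solvent and 2 and 40 in cisplatin. Of the 37 nuclear subunits of complex I, 1 was higher and 19 lower in solvent and 3 and 12 in cisplatin. In cisplatin 28.6% of all genes were higher and 21.1% lower. The part of POLRMT, FASTK and these lists in the mitochondrial values was not tested.

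Control gapmer transfection went with higher PNPT1, a mitochondrial exoribonuclease that degrades RNA together with SUPV3L1 and is also known as an interferon-stimulated gene. PNPT1 stood at 32.0 and 30.1 FPKM in untransfected A549/cDDP in solvent and 103 and 128 with the control gapmer, a difference of 1.87 ± 0.12 (adjusted p = 2.55e-07). Under cisplatin its values were 29.6 and 27.6, against 95.6 and 97.1, a difference of 1.74 ± 0.12 (adjusted p = 3.36e-07). The transfected libraries lay above the untransfected ones in both settings. With transfection, 23 of the 81 ribosomal proteins were higher and 5 lower in solvent, and 37 and 2 in cisplatin. Of all genes, 20.7% were higher and 19% lower in solvent, and 23% and 19.4% in cisplatin. The higher count of ribosomal proteins in solvent is therefore not far from the share over all genes. Of 27 genes of mitochondrial RNA cleavage, tailing, stability and decay, 9 were higher and 5 lower in solvent and 11 and 6 in cisplatin. Their lower counts lie near the shares over all genes. The heavy-strand mRNAs in the same libraries were lower or not called. Whether PNPT1 had a part in their values was not tested.

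Reads of mitochondrial RNA can be assigned to copies of mitochondrial DNA in the nuclear genome, and the reverse. Of 401 such copies in the table, 4 had a mean of at least 0.5 FPKM. The most abundant was MTATP6P1 on chromosome 1 (chr1:633696-634376), with a mean of 365 FPKM, where MT-ATP6 had 3634. MTATP6P1 stood at 378 and 357 FPKM with the control gapmer in solvent and 275 and 261 with the SCAT7 gapmer. All 4 copies were higher in A549/cDDP than in A549 in solvent, where 42.7% of all genes were higher. With the SCAT7 gapmer 2 of the 4 were lower and 0 higher, in solvent and in cisplatin, with 0 higher at an unadjusted p under 0.05. Of all genes, 33.2% were higher and 22.7% lower there in solvent, and 28.6% and 21.1% in cisplatin. Whether the reads of these 4 copies came from the mitochondrial or the nuclear copy cannot be told apart here.

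The nuclear genes most like the 12 heavy-strand protein genes were found by Pearson's correlation of their log2 values with the mean of the 12, over the 16 libraries and 10482 genes. FAM173B, also called ATPSCKMT, came first, with r = 0.96, followed by NSUN5P1, NECAB3, SGSM2 and UBE2G2, the last with r = 0.93. FAM173B encodes a methyltransferase that acts on the c subunit of ATP synthase. Its mean was 14.8 FPKM in A549 and 23.2 in A549/cDDP in solvent, 15.5 with the control gapmer, against 11.4 with the SCAT7 gapmer. The 16 points are 8 groups of 2 libraries and share their depth and scaling, so these values are a description.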

How the data were processed

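RNA-seq of 16 libraries in 8 groups of 2 was used. The deposited table gives FPKM per Ensembl gene. Per the submitters' processing notes, TopHat2, HTSeq 0.6.1 and build hg38 were used; the annotation release, strand setting and counting mode are not given in the sources used here. Gene models of GENCODE 29 supplied symbols, lengths and sequences for 56868 of 60448 identifiers. Of FPKM values of single-exon genes worth up to 20 fragments, 97.9% to 98.4% were whole fragments within 0.02 of a fragment, which gave the depth; FPKM were not turned into counts.

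The 17198 genes whose mean reached 0.5 FPKM were tested on log2(FPKM + 0.5) with limma 3.58.1 in R 4.3.3. All 16 libraries entered 1 fit of 8 group means with 8 residual degrees of freedom, without a replicate block, with a trend in the prior and two-sided tests. A fold on this scale understates changes of low genes. There were 12 comparisons, with Benjamini-Hochberg adjustment over all genes of each and a threshold of 0.05. On simulated data for cisplatin in A549 (16854 genes), 80% of changes of 0.5 and 93% of changes of 1 on the log2 scale were recovered, with 2.81% false calls. The simulation changed only a small set of genes and gave every gene the same spread beyond counting. In the data 60.4% of genes were called in that comparison, so these rates need not hold there.

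The protein genes, the rRNAs and the tRNAs that passed the filter are named. From each of 15 lists, names come from the up to 4 called members with the largest change and at least 5 FPKM in the higher group of each comparison. The 5 nuclear genes most alike and the target ELF3-AS1 were added. The members and the lists were chosen with earlier results of these data known. Alternatives were other pseudocounts, filters and scalings, a replicate block, only the libraries compared and each library left out; a prior without a trend was added after seeing the data. No further column of values was left unused.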

Additional observations from a re-analysis of the deposited data

Results flagged for a closer look

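The response to cisplatin differed between A549/cDDP and A549 for 8 of 24 mitochondrial genes in limma's test of the difference (adjusted p under 0.05). Of all genes, 47% differed, 21.5% in the positive and 25.6% in the negative direction. The count of 8 of 24 thus lay below the share over all genes, and as a negative count it is not far from its share. The difference, as the response in A549/cDDP minus that in A549, was negative for each of the 8. It was -0.665 for MT-RNR2, -0.391 for MT-RNR1, -0.527 for MT-ND6, -0.77 for MT-TQ, -0.644 for MT-TP, -0.416 for MT-TE, -0.362 for MT-CO1 and -0.321 for MT-ND5, all on the log2 scale. For MT-RNR2, MT-RNR1 and MT-CO1 the response passed the threshold in A549 and not in A549/cDDP. For MT-ND6, MT-TQ and MT-TP it passed in A549/cDDP and not in A549. For MT-TE and MT-ND5 it passed in neither line. The calls of the difference for MT-CO1, MT-ND5, MT-TE and MT-TP did not hold under all 18 alternatives run.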

How the results depend on the processing

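Counts below are of the 12 heavy-strand protein genes. With quantile normalization, which gives the top-ranked MT-CO1 the same value in every library, 4 were higher with cisplatin in A549, 1 higher and 1 lower in A549/cDDP, 1 higher and 2 lower with the control gapmer against no transfection in solvent and in cisplatin respectively, and 5 differed in response between lines. It turned the sign of MT-CO2 with cisplatin in A549/cDDP (0.13) and between lines in cisplatin (0.30), of MT-ND2 and MT-CO2 with the control gapmer against no transfection in solvent (0.051 and 0.13), and of MT-RNR2, MT-ND1 and MT-ND2 in cisplatin (0.20, 0.088 and 0.046). With only the libraries compared, 7 were higher with cisplatin in A549, 4 higher and 0 lower between lines in cisplatin, 6 lower between gapmers in cisplatin, 1 lower with the control gapmer against no transfection in cisplatin and 4 differed in response between lines. With no filter on low values, 4 were higher and 0 lower between lines in cisplatin, 2 lower with the control gapmer against no transfection in cisplatin and 0 differed in response between lines. With median ratio scaling, 4 were higher between lines in cisplatin and 0 differed in response. With totals that leave out the mitochondrial genes, and with a prior without a trend, 0 were lower between lines in cisplatin. The no-filter setting tests more genes; the cause was not tested otherwise.

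With the replicate block 1 gene was lower with cisplatin in A549/cDDP, and of 288 member results 284 were the same, 3 lost and 1 gained a call. The labels share replicate numbers, but over 28 pairs of groups the deviations of same-numbered libraries correlated at -0.19 to 0.12, with a median of 0.01, so the numbers were not taken as pairs.

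Leaving out 1 library, with the lone library assumed to vary like the other groups, gave 1 to 2 higher with cisplatin in A549, 0 to 1 lower in A549/cDDP, and 0 to 1 higher and 0 to 3 lower with the SCAT7 gapmer. It gave 8 to 9 higher between lines in solvent and 5 to 6 higher and 0 lower in cisplatin. It gave 5 to 9 and 7 to 11 lower between gapmers in solvent and cisplatin, 5 to 7 and 1 to 6 lower with the control gapmer against no transfection, and 0 to 7 differing in response between lines. Over all members, 1209 results were the same, 111 lost and 24 gained a call. Groups of 2 libraries limit the precision of all values, and MT-ATP8 rests on only about 32 to 107 fragments a library.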
